A study of Mus musculus with 6 samples.

Results

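The miR-34 and miR-449 microRNAs (miRNAs) were followed in small RNA libraries of mouse pancreas with pancreatitis. The members were the mature arms of miR-34a, miR-34b and miR-34c and the 5p arm of miR-449a, chosen by name, and all 7 were among the 1077 mature miRNAs of the count table. The group labelled HTG_AP had 3 libraries from mice whose blood triglycerides were raised (HTG in the labels), and the group labelled CON_AP had 3 libraries from controls without this condition. All 6 libraries came from inflamed pancreas, so pancreatitis with and without this condition was compared, and healthy tissue was not. Strain, age, sex, and the way pancreatitis and the raised triglycerides were brought about are not stated in the labels. Whether each library is a mouse of its own is not stated there either, and the p-values then cover only the spread from library to library, technical spread included.

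MiRNAs are cut as 2 arms, 5p and 3p, from a hairpin RNA, and repress messenger RNAs that pair with their seed (bases 2 to 8). The tumour suppressor p53 binds the genes of miR-34a and of miR-34b and miR-34c and raises their transcription after DNA damage. The 5p arms then repress cell cycle and survival genes such as Cdk6, Met and Bcl2. MiR-449a carries the same seed, is driven by E2F1, and is best known with miR-34b and miR-34c from multiciliated cells. In pancreatic islets, miR-34a has been reported to increase in beta cells exposed to fatty acids.

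The sequences below are shown because the seed sorts the members into families. They are RefSeq entries for GRCm38.p6, written 5′ to 3′ with the seed in capitals. Matches were found for 6 of the 7 members, and miR-34c-5p had no mature entry.
miR-34a-5p: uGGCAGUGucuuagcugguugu
miR-34b-5p: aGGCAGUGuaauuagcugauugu
miR-449a-5p: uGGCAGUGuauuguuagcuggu
miR-34b-3p: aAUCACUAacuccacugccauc
miR-34c-3p: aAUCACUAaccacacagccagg
miR-34a-3p: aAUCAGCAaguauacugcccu
The 5p arms of miR-34a, miR-34b and miR-449a share the seed GGCAGUG, and no other of the 901 miRNAs of the table with a RefSeq sequence had it. The 3p arms of miR-34b and miR-34c share AUCACUA and miR-34a-3p has AUCAGCA, and no other of the 901 had either of these. Outside the seed the sequences were alike but not identical. Aligned from the first base without gaps, miR-34a-5p and miR-449a-5p were identical at 15 of 22 positions, miR-34a-5p and miR-34b-5p at 11 of 22, and miR-34b-3p and miR-34c-3p at 17 of 22. Stretches shared at shifted positions, as in the tails of these 5p arms, are not counted this way, so the likeness is understated. No other miRNA of the table had the same 6 counts as a member.

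The hairpins of Mir34b and Mir34c are shown to set the neighbouring genes side by side, with GGCAGUG and AUCACUA in capitals on the transcribed strand.
Mir34b: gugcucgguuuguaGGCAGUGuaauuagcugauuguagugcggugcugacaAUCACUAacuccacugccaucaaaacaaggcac
Mir34c: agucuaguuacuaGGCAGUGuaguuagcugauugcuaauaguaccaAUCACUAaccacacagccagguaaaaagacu
Each of these hairpins held both motifs at 1 place, and among all 1005 mouse hairpins of the table of sequences GGCAGUG occurred in 17 and AUCACUA in 8. On GRCm38, with GENCODE M21 gene models, Mir34b lies at chr9:51103562-51103645 and Mir34c at chr9:51103034-51103110. Both are on the minus strand with 451 bases between them, inside an intron of Btg4, a gene of the opposite strand. Mir34a lies at chr4:150068454-150068555 (plus strand) and overlaps an exon of Gm37795, a gene model of unsettled type on the same strand. Mir449a lies at chr13:113037534-113037624 (plus strand) in an intron of Cdc20b.

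The libraries held 6514498 to 19773579 counts. The members together took 0.0630% of the counts in HTG_AP1, 0.0949% and 0.0964% in HTG_AP2 and HTG_AP3, and 0.0840% to 0.0919% in the CON_AP libraries. Levels are given as CPM, counts scaled to library size with a TMM correction (for differences in library composition). They are not divided by length, since the mature sequences are 21 to 23 bases long. A count of 0 allows up to 3 counts, or 0.137 to 0.387 CPM by library, which covers counting error only. The libraries numbered 1 of both groups stood apart from the other 4 on the first principal component, which held 49.3% of the variance (-13.4 for HTG_AP1, -7.66 for CON_AP1, 3.29 to 6.74 for the rest). The acinar miRNA miR-148a-3p, at 281665 to 492106 CPM, and the other 3 acinar markers were found in all libraries, as the tissue label says.

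mmu-miR-34a-5p, the guide arm of the family and a repressor of cell cycle and survival genes, was by far its most abundant member. It stood at rank 68 of the 1077 miRNAs by mean level. Its levels were 486, 1042 and 1036 CPM in HTG_AP1, HTG_AP2 and HTG_AP3, against 829, 839 and 788 CPM in CON_AP1, CON_AP2 and CON_AP3. HTG_AP1 was the lowest and HTG_AP2 and HTG_AP3 the highest of the 6 libraries, so the groups overlapped, with all controls between them. The means were 854 ± 319 CPM in HTG_AP and 819 ± 26.7 CPM in CON_AP (SD, n = 3 each). The spread was 37.3% of the mean in HTG_AP and 3.27% in CON_AP, where counting error alone gives 1.2% and 1.05%. The log2 fold change was 0.06 ± 0.29 (SE), with a 95% interval from 0.655-fold to 1.66-fold and an adjusted p of 0.996 in edgeR's quasi-likelihood test. The sign turned with scaling by library size (-0.04), in limma on TPM (-0.07) and with the replicate number as a block (-0.02).

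**Figure D1:**
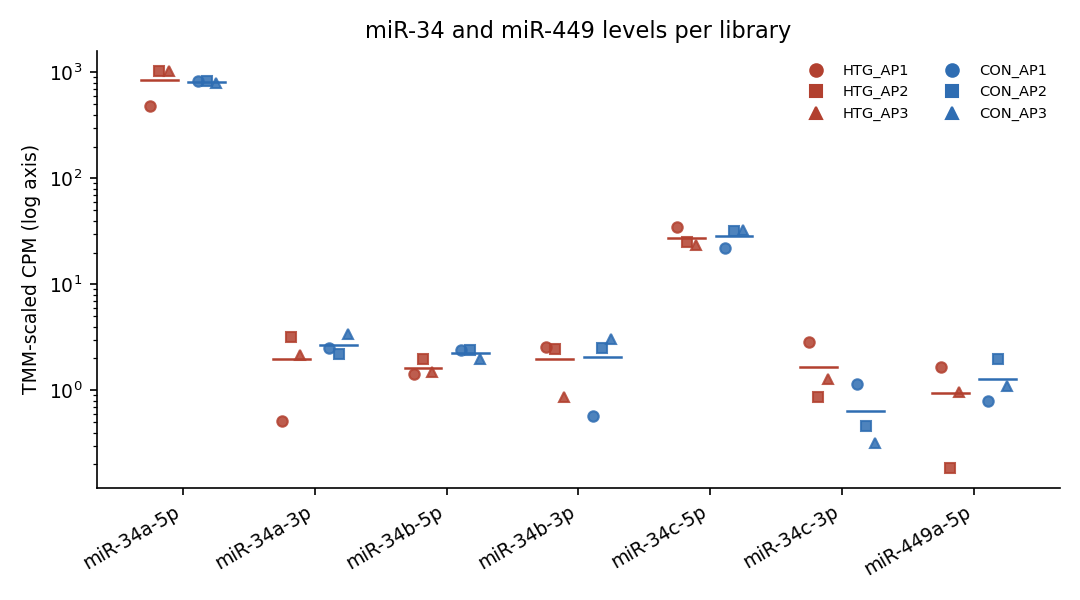
TMM-scaled CPM of each member in every library on a log axis, with HTG_AP (red) left of CON_AP (blue), symbols for replicate numbers and a line at the group mean. miR-34a-5p lies between 486 and 1042 CPM and miR-34c-5p between 22.2 and 34.6 CPM, while the other 5 members lie at or below 3.38 CPM.

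The log2 fold change of miR-34a-5p was -0.10 without HTG_AP2, -0.10 without HTG_AP3, and moved most without HTG_AP1. HTG_AP1 was the only HTG_AP library below the controls, so without it the other 2 necessarily lay above all 3 controls. The log2 fold change without HTG_AP1 was 0.38 ± 0.11 (SE; edgeR adjusted p = 0.514, unadjusted p = 0.0153). In that comparison 12.5% of the 488 tested miRNAs lay wholly higher in HTG_AP, and edgeR called 0 at the adjusted threshold, while 45 of the 500 miRNAs that passed the filter there, or 9%, had an unadjusted p under 0.05. Without both libraries numbered 1 the log2 fold change was 0.44 ± 0.13 (edgeR adjusted p = 0.229), where edgeR called 4 of 509 miRNAs, or 0.786%, and 13.8% had an unadjusted p under 0.05.

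Markers of several cell types also differed between the HTG_AP libraries. The 4 acinar markers, all detected, summed to 317979, 527832 and 510381 CPM in HTG_AP1, HTG_AP2 and HTG_AP3, against 437373, 414034 and 319029 CPM in CON_AP1, CON_AP2 and CON_AP3. The 4 leukocyte markers, all detected, summed to 5900, 1101 and 1298 CPM in HTG_AP, against 3263, 4437 and 2196 CPM in CON_AP. By TMM-scaled CPM HTG_AP1 thus had the lowest acinar and the highest leukocyte sum, but the single markers did not all share this order. The acinar order also depended on the scaling, with TMM factors of 1.19 in HTG_AP1 and 1.11 in CON_AP3. Without the TMM correction the acinar sum was lowest in CON_AP3. The acinar sum is mostly miR-148a-3p, which was lowest in CON_AP3 (281665 CPM, against 298116 CPM in HTG_AP1). MiR-216a-5p, miR-216b-5p and miR-217-5p were lowest in HTG_AP1 by TMM-scaled CPM. Without the TMM correction each of these was lower in CON_AP1 or CON_AP2 than in HTG_AP1. Of the leukocyte markers, miR-142a-5p, miR-142a-3p and miR-150-5p were highest in HTG_AP1, while miR-223-3p had 993 CPM there, against 3510 CPM in CON_AP2. The 4 epithelial markers, all detected, summed to 28607, 44524 and 42918 CPM in HTG_AP, against 35014, 37907 and 38519 CPM in CON_AP. This sum was mostly miR-200a-3p, miR-200b-3p and miR-200c-3p, which were lowest in HTG_AP1 by TMM-scaled CPM. MiR-141-3p was lowest in CON_AP3 (500 CPM), against 787 CPM in HTG_AP1. Over all 6 libraries the summed markers lay between 35879 and 49021 CPM for islet (2 of 2 detected), 14348 and 58238 CPM for stellate and mesenchymal (4 of 4) and 7819 and 9322 CPM for endothelial cells (2 of 2). The stellate and mesenchymal sum was mostly miR-143-3p (12982 to 56171 CPM). MiR-145a-5p lay at 593 to 1595, miR-199a-5p at 420 to 475 and miR-214-3p at 35.4 to 62.6 CPM. The islet sum was mostly miR-375-3p, whose groups overlapped. MiR-7a-5p had 4858, 5589 and 5285 CPM in HTG_AP, against 4374, 2348 and 2191 CPM in CON_AP. Its groups did not overlap, as for 7.99% of all tested miRNAs. The part of these cells in the miR-34a-5p values was not tested, and in whole tissue fewer cells of a type and less miRNA per cell cannot be told apart.

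**Figure D2:**
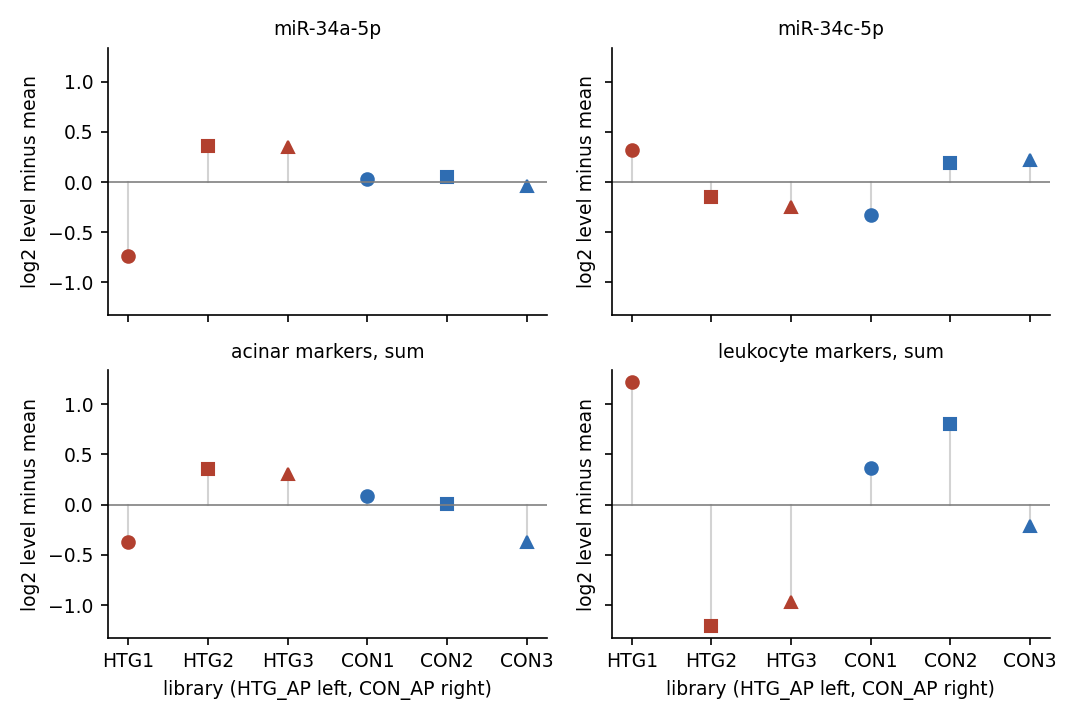
Log2 level minus the mean of the 6 libraries for miR-34a-5p, miR-34c-5p and the summed acinar and leukocyte markers, in HTG_AP1 to HTG_AP3 (red) and CON_AP1 to CON_AP3 (blue). HTG_AP1 is at -0.74 for miR-34a-5p, 0.32 for miR-34c-5p, -0.38 for the acinar and 1.22 for the leukocyte sum. CON_AP3 is at -0.37 for the acinar sum, and the levels are TMM-scaled CPM.

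mmu-miR-34c-5p, cut from the gene pair on chromosome 9 and known from ciliated and germ cells, was the next in level at rank 220. It had 34.6, 24.96 and 23.3 CPM in HTG_AP1, HTG_AP2 and HTG_AP3, against 22.2, 31.6 and 32.3 CPM in CON_AP1, CON_AP2 and CON_AP3. HTG_AP1 was the highest of all and CON_AP1 the lowest, and the groups overlapped. HTG_AP1 also had the highest sum of leukocyte markers, though not of miR-223-3p among them, and their part in this was not tested. The log2 fold change was -0.06 ± 0.24 (SE; edgeR adjusted p = 0.996), with a 95% interval from 0.649-fold to 1.42-fold. The sign turned without CON_AP2 (0.01), CON_AP3 (0.03) or HTG_AP3 (0.04).

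The other 5 members were near the counting limit, with 3 to 74 counts per library. mmu-miR-34a-3p, the passenger arm of miR-34a, had 0.516, 3.21 and 2.15 CPM in HTG_AP1, HTG_AP2 and HTG_AP3, against 2.50, 2.19 and 3.38 CPM in CON_AP1, CON_AP2 and CON_AP3. HTG_AP1, with 4 counts, was lowest for this arm as for miR-34a-5p, and the log2 fold change of -0.43 ± 0.59 (SE) became 0.02 without that library (edgeR adjusted p = 0.996 with it and 0.994 without). mmu-miR-34b-5p, which shares the seed of miR-34a-5p, had 1.42, 1.97 and 1.51 CPM in HTG_AP, against 2.39, 2.42 and 1.96 CPM in CON_AP. HTG_AP2, the highest of its group, just passed CON_AP3, the lowest of the other. This overlap depended on the scaling. By TPM the groups did not overlap, at 1.72, 1.77 and 1.39 in HTG_AP, against 2.38, 2.4 and 2.21 in CON_AP. The log2 fold change was -0.45 ± 0.35 (edgeR adjusted p = 0.996). Its sign was kept in all 13 alternatives, which ranged from -0.64 to -0.22.

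mmu-miR-34b-3p, of the second seed group, had 2.58, 2.47 and 0.860 CPM in HTG_AP1, HTG_AP2 and HTG_AP3, against 0.568, 2.54 and 3.06 CPM in CON_AP1, CON_AP2 and CON_AP3. Each group held 1 low library, HTG_AP3 and CON_AP1, and the log2 fold change was -0.09 ± 0.66 (SE; edgeR adjusted p = 0.996). mmu-miR-34c-3p, of the same seed group, had 2.84, 0.863 and 1.29 CPM in HTG_AP, against 1.14, 0.461 and 0.320 CPM in CON_AP. These were 22, 14 and 12 counts in HTG_AP, against 10, 4 and 7 in CON_AP. HTG_AP1 was highest, as for miR-34c-5p, and HTG_AP2 lay below CON_AP1, so the groups overlapped. With a log2 fold change of 1.42 ± 0.68 (SE), this was the member with the largest difference, and it did not pass (edgeR adjusted p = 0.996, unadjusted p = 0.0739). It was 0.85 without HTG_AP1 and 2.16 without CON_AP1, and positive in all 13 alternatives.

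mmu-miR-449a-5p, from the Cdc20b intron, had 1.68, 0.185 and 0.968 CPM in HTG_AP1, HTG_AP2 and HTG_AP3, against 0.796, 1.96 and 1.097 CPM in CON_AP1, CON_AP2 and CON_AP3. HTG_AP2 had 3 counts, which is the limit itself. The log2 fold change was -0.52 ± 0.76 (SE; edgeR adjusted p = 0.996). It was 0.00 without HTG_AP2, -0.11 without CON_AP2, -1.22 without HTG_AP1 and -1.41 without both libraries numbered 1, and not called in any of these. Its 3p arm, which is no member, had 0 counts in the HTG_AP libraries, against 0, 0 and 3 in CON_AP1, CON_AP2 and CON_AP3.

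In the order of mean level, miR-34a-5p (836 CPM) and miR-34c-5p (28.2 CPM) were each separated from the next member in every library. The others, miR-34a-3p (2.32 CPM), miR-34b-3p (2.01), miR-34b-5p (1.95), miR-34c-3p (1.15) and miR-449a-5p (1.11), overlapped with their neighbours. The members thus ranged in level, but none was called between the groups. Of the 7 tested members 2 were higher and 5 lower in HTG_AP, with a median log2 fold change of -0.09, against 239 higher, 249 lower and a median of -0.01 over the 488 tested miRNAs. The signs of miR-34a-5p, miR-34a-3p, miR-34b-3p and miR-34c-5p turned under some alternatives. EdgeR called 0 of the 7 members and 0% of the 488 miRNAs at the adjusted threshold. At an unadjusted p under 0.05 there were 0 members against 2.46% of all, DESeq2 gave 0 members against 3.89%, and limma on TPM 0 against 2.46%. With the replicate number as a block, 1 member had an unadjusted p under 0.05, miR-34c-3p (unadjusted p = 0.0262, edgeR adjusted p = 0.652), against 5.53% of all. At the adjusted threshold DESeq2 and limma on TPM also called 0 miRNAs. By TMM-scaled CPM no member had groups without overlap, against 7.99% of all tested miRNAs. By TPM the groups of miR-34b-5p did not overlap, and the share over all miRNAs was not counted there. The median SE was 0.59 for the members and 0.29 for all tested miRNAs.

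**Figure D3:**
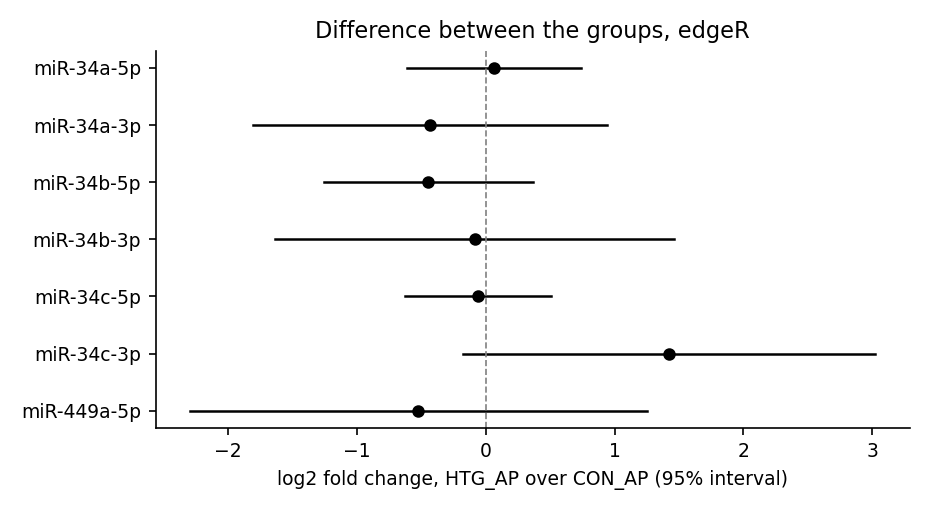
Log2 fold change of HTG_AP over CON_AP for each member (points) with its 95% interval (lines) from edgeR, and a dashed line at no difference. All intervals cross 0, and they are narrowest for miR-34c-5p (-0.62 to 0.51) and miR-34a-5p (-0.61 to 0.74).

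The arms of a hairpin were compared within each library, where no scaling is needed. For miR-34a the 5p arm had 837, 322 and 470 reads for each 3p read in HTG_AP1, HTG_AP2 and HTG_AP3, against 324, 373 and 232 in CON_AP1, CON_AP2 and CON_AP3 (0.5 added to each count). Every library was thus dominated by the 5p arm, and the log2 ratio differed by 0.73 (8.97 ± 0.69 in HTG_AP and 8.25 ± 0.35 in CON_AP, SD, n = 3 each; exact permutation p = 0.3). For miR-34c the ratios were 11.9, 28.0 and 17.4 in HTG_AP, against 18.6, 61.0 and 94.5 in CON_AP. CON_AP1 lay among the HTG_AP libraries, and the log2 ratio differed by -1.40 (4.17 ± 0.62 and 5.57 ± 1.21, SD, n = 3 each; exact permutation p = 0.2). For miR-34b neither arm led in all libraries, with ratios of 0.561, 0.802 and 1.71 in HTG_AP, against 3.91, 0.956 and 0.644 in CON_AP. Its log2 ratio differed by -0.55 (-0.13 ± 0.82 and 0.42 ± 1.37, SD, n = 3 each; exact permutation p = 0.6). With 3 libraries a group the smallest p of this two-sided test is 0.1, so no such difference could pass 0.05. The ratios also rest on few 3p counts, so they are imprecise. The 3p arm of miR-34a had 4 counts in HTG_AP1 (95% counting interval 1.09 to 10.2), and that of miR-34c had 4 to 22 counts per library.

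**Figure D4:**
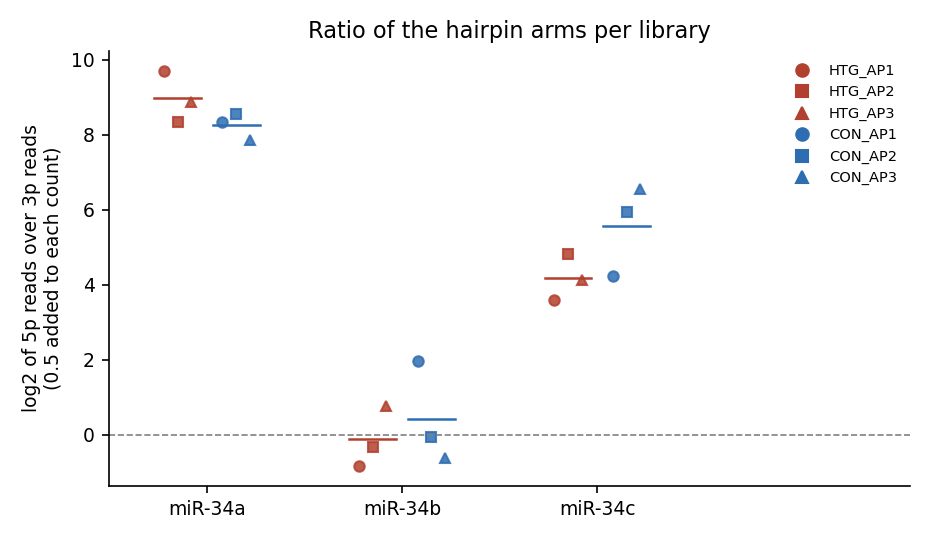
Log2 of 5p reads over 3p reads for the 3 miR-34 hairpins in every library, with HTG_AP (red) left of CON_AP (blue), a line at the group mean and a dashed line at equal arms. The ratios lie between 7.86 and 9.71 for miR-34a and between 3.58 and 6.56 for miR-34c, and on both sides of 0 for miR-34b.

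The 4 members known to carry the GGCAGUG seed were summed. The sum was 524, 1069 and 1061 CPM in HTG_AP1, HTG_AP2 and HTG_AP3, against 854, 875 and 824 CPM in CON_AP1, CON_AP2 and CON_AP3. MiR-34a-5p made up 92.8% of it in HTG_AP1 and 95.7% to 97.6% elsewhere, and miR-34c-5p 6.61% in HTG_AP1 and 2.20% to 3.93% elsewhere. MiR-34b-5p and miR-449a-5p together thus added little, with at most 0.279% and 0.321%. The log2 sum differed by -0.02 between HTG_AP and CON_AP (9.72 ± 0.59 and 9.73 ± 0.04, SD, n = 3 each; exact permutation p = 1), and by 0.32 without HTG_AP1 (exact permutation p = 0.1, the smallest possible). HTG_AP1 was the only HTG_AP library below the controls in this sum. Without it HTG_AP2 and HTG_AP3 necessarily lay above all controls, so this p adds no support.

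MiR-34a-5p and miR-34c-5p, made from separate genes, differed in their order across the libraries. There were 14.02, 41.7 and 44.3 reads of miR-34a-5p for each of miR-34c-5p in HTG_AP1, HTG_AP2 and HTG_AP3, against 37.3, 26.5 and 24.3 in CON_AP1, CON_AP2 and CON_AP3. The lowest and the highest ratios were both found in HTG_AP. The log2 ratio differed by 0.03 between the groups (4.89 ± 0.93 and 4.85 ± 0.33, SD, n = 3 each; exact permutation p = 1).

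Other miRNAs linked to p53, mostly from work in human cells, were read from a list of 11, all in the table and 10 of them tested. They are transcribed from p53 target genes (such as miR-192-5p, miR-194-5p, miR-107-3p, miR-200c-3p and miR-141-3p) or processed faster with p53 (miR-16-5p, miR-143-3p and miR-145a-5p). EdgeR called 0 of the 10, against 0% of all tested miRNAs, and 0 had an unadjusted p under 0.05, against 2.46% of all. In direction 5 were higher and 5 lower in HTG_AP, with a median log2 fold change of -0.06, against -0.01 over all tested miRNAs. The most abundant was miR-143-3p, also a smooth muscle miRNA, at 32184, 16158 and 18513 CPM in HTG_AP1, HTG_AP2 and HTG_AP3, against 56171, 22365 and 12982 CPM in CON_AP1, CON_AP2 and CON_AP3. It was high in both libraries numbered 1. The epithelial miR-200c-3p had 6822 ± 1271 CPM in HTG_AP and 6743 ± 905 CPM in CON_AP, and miR-16-5p, a repressor of cyclin messenger RNAs, 2399 ± 885 and 2281 ± 146 CPM (SD, n = 3 each). By TMM-scaled CPM HTG_AP1 was the lowest library for miR-200c-3p (5380 CPM), as for miR-34a-5p, and the highest for miR-16-5p (3420 CPM). For miR-200c-3p this depended on the scaling, and without the TMM correction CON_AP1 was the lowest. Of the 10, miR-15a-5p, chosen for naming after its values were seen, was the 1 whose groups did not overlap, at 372 ± 8.79 CPM in HTG_AP and 319 ± 17.0 CPM in CON_AP (SD, n = 3 each; edgeR adjusted p = 0.996). That is 1 of 10, near the 7.99% of all tested miRNAs without overlap. The separation of miR-15a-5p depended on the scaling, and without the TMM correction HTG_AP2 lay below CON_AP3.

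The tested miRNAs most like miR-34a-5p across the 6 libraries were miR-190a-5p, miR-138-5p and let-7a-1-3p. Their log2 levels, centred on their own mean, differed from its own by a root mean square of 0.10, 0.12 and 0.12, against a median of 0.50 over all tested miRNAs. For example, miR-190a-5p had 16.8, 32.4 and 39.9 CPM in HTG_AP1, HTG_AP2 and HTG_AP3, against 28.2, 31.8 and 27.9 CPM in CON_AP1, CON_AP2 and CON_AP3. Those most like miR-34c-5p were miR-17-3p, miR-872-3p and miR-532-5p, at 0.08, 0.08 and 0.12, against a median of 0.38. The most similar, miR-17-3p, had 42.3, 28.4 and 28.5 CPM in HTG_AP, against 28.5, 42.7 and 41.7 CPM in CON_AP. These likenesses describe the same 6 libraries and carry no test. In mean level, miR-34a-5p stood between miR-145a-5p (869 CPM) and the acinar miR-216b-3p (809 CPM), and miR-34c-5p between miR-130a-3p (28.6 CPM) and miR-24-1-5p (27.9 CPM).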

How the data were processed

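Small RNA was sequenced from 6 libraries of mouse pancreas with pancreatitis, prepared with Trizol and the NEXTflex Small RNA-Seq Kit v3, per the labels' protocols. The authors deposited whole-number read counts per mature miRNA and, beside them, values headed TPM. How the TPM values were computed is not stated in the file headers. The submitters' processing notes name Bowtie 1.1.1 and the build GRCm38, while adapter trimming, the miRNA annotation and the handling of multiply matching reads are not stated there.

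The main test was edgeR's two-sided quasi-likelihood test (version 4.0.16, R 4.3.3) with TMM scaling on the miRNAs that filterByExpr kept (count minimum 10, total minimum 15). P-values were adjusted by Benjamini-Hochberg over these 488 miRNAs with a threshold of 0.05. All 7 members passed the filter. Values per library were compared by exact permutation. DESeq2 1.42.0, limma 3.58.1 on log2(TPM + 1) and log2(TPM + 0.1), other scaling, no filter and left-out libraries were alternatives. Same-numbered libraries deviated together from their group means (correlation across miRNAs 0.466, 0.187 and 0.253 for numbers 1, 2 and 3). All 3 were above 0.1, the limit set for taking the numbers as pairs, and a fit with the replicate number as a block was run. The libraries numbered 2 and 3 were as alike across numbers (0.226 for HTG_AP2 with CON_AP3 and 0.215 for HTG_AP3 with CON_AP2), so the correlations set apart only number 1.

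Named were all members, miRNAs of the same seed, the 3 most abundant of the p53-linked list, the nearest profiles and levels, and cell type markers. Members and lists were chosen with earlier results of these data known. Sequences are from RefSeq (GRCm38.p6) and gene models from GENCODE M21.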

Additional observations from a re-analysis of the deposited data

How the results depend on the processing

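No member and no miRNA of the p53-linked list was called in any of the 13 alternatives. The count over all miRNAs was 0 in the main comparison, 1 with no filter on low counts, 4 without both libraries numbered 1 and 0 to 2 when 1 library was left out. The replicate block changed no call, and gave 27 unadjusted calls in place of 12. Several signs turned. The log2 fold change of miR-34a-5p was -0.0377 with library size scaling, -0.0707 and -0.0708 in the limma fits on log2(TPM + 1) and log2(TPM + 0.1), and -0.0165 with the replicate block, and ran from -0.10 to 0.38 when 1 library was left out. MiR-34a-3p was at 0.0290 without both libraries numbered 1 and between -0.99 and 0.0219 with 1 left out. MiR-34b-3p was at 0.0324 in limma on log2(TPM + 0.1) and between -0.45 and 0.34 with 1 left out, and miR-34c-5p between -0.21 and 0.0427. MiR-34b-5p and miR-34c-3p kept their signs throughout. MiR-449a-5p was never positive, but at -0.000108 without HTG_AP2 it had no direction left. MiR-143-3p was at 0.0577 without both libraries numbered 1 (-0.83 to 0.38 with 1 left out). MiR-200c-3p was at -0.0615 with library size scaling and -0.0422 in both limma fits (-0.10 to 0.20). MiR-16-5p was at -0.0342 and -0.0343 in the limma fits and -0.13 without both libraries numbered 1 (-0.24 to 0.20). The arm ratio of miR-34b differed by 0.58 without both libraries numbered 1 (-1.08 to 0.22 with 1 left out), the log2 ratio of miR-34a-5p to miR-34c-5p by -0.26 to 0.57 with 1 left out, and the seed family sum by 0.33 without both libraries numbered 1 (-0.19 to 0.32). The cause was not tested. The arm ratios of miR-34a (0.36 to 1.05) and miR-34c (-2.08 to -0.91) kept their signs. Counts of 3 to 74 limit 5 of the 7 members.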
